A study of Homo sapiens with 27 samples.

Results

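The shRNAs described here were poorly represented in UMSCC1 cells but well represented in UMSCC8 and UMSCC25 cells when the kinome shRNA library was grown in vehicle alone. They were selected on the DMSO plates only. Abundance was expressed as CPM, the count of an shRNA divided by the total of its library and multiplied by 1000000, and averaged over the 3 DMSO plates of each line. An shRNA was a member when its average was at least 100 CPM in both UMSCC8 and UMSCC25 and its UMSCC1 average was at most 0.333 times the lower of these 2. Of 3177 shRNAs in the table, 1865 reached 100 CPM in both lines and could have been selected, and 57 of these (3.06%) met the rule. The 57 were 1.79% of the table.

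UMSCC1, UMSCC8 and UMSCC25 are established cell lines of squamous carcinoma of the head and neck. Each line was transduced with the packaged MISSION TRC1 human kinome library on 2 plates, selected with puromycin and divided over 9 plates, of which 3 received gefitinib, 3 received AZD8931 and 3 received DMSO as the vehicle. Exposure lasted 72 hours and was followed by 72 hours of recovery in medium, after which shRNA cassettes were amplified from genomic DNA and sequenced. The treatment protocol gives 300 nM gefitinib and 30 nM AZD8931, and another field of the sample labels gives 1000 nM for both. The 9 groups, gefitinib, AZD8931 and DMSO in UMSCC1, UMSCC8 and UMSCC25, had 3 libraries each. All plates of a line came from the same transduced cells, so a difference between lines cannot be told apart from a difference between their transductions. No library of the packaged virus or of cells taken before the division was analysed here. A low entry of an shRNA into UMSCC1 cells and its later loss therefore cannot be told apart. The p-values measure the spread between plates, which may be technical.

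A pooled shRNA library integrates 1 or a few hairpin cassettes into each cell. The hairpin is processed into a small RNA that directs degradation of a matching messenger RNA, and the integrated cassette serves as a barcode for counting the descendants of that cell. An shRNA that silences a gene needed for growth is lost from the culture as other cells expand, while chance during transduction and passage also sets how many cells carry each shRNA. Gefitinib inhibits the kinase of the epidermal growth factor receptor (EGFR), a growth driver in many head and neck carcinomas, and AZD8931 inhibits several receptors of the same ErbB family. The deposited table identifies shRNAs by clone number of The RNAi Consortium without the genes they target, so the members are described by clone identifier. Hairpin sequences were not used here.

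Library totals ranged from 178406 to 559422 counts, and a count of 0 allows up to 3 counts, or 16.8 CPM in the shallowest library and 5.36 CPM in the deepest. Reads amplified by PCR without molecular identifiers are not independent molecules, so such limits cover counting error only. A pair of libraries stood apart from the others of their line. UMSCC1 AZD8931 replicate 1 had 354 shRNAs at 0 counts, against 163 to 260 in the other UMSCC1 libraries, and UMSCC8 DMSO replicate 1 had 328, against 81 to 139 in the other UMSCC8 libraries. In UMSCC1 DMSO replicate 2, 1 shRNA that was not a member took 14.0% of the counts. Without UMSCC8 DMSO replicate 1 the rule again gave 57 shRNAs, of which 51 were members, and without UMSCC1 DMSO replicate 2 it gave 58, of which 46 were members. Without UMSCC1 DMSO replicate 3, 92 shRNAs met the rule, and 47 of these were members.

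On the DMSO plates, from which the members were chosen and which are therefore given without a test, the 57 shRNAs averaged 5.47 to 489 CPM in UMSCC1, with a median of 41.8 CPM. Their averages were 110 to 1817 CPM in UMSCC8 (median 249.7 CPM) and 101 to 2620 CPM in UMSCC25 (median 226 CPM). The ratio of the UMSCC1 average to the lower of the other averages ran from 0.0470 to 0.329, with a median of 0.252, and was at most 0.2 for 21 members. In the 1808 shRNAs that reached 100 CPM in both other lines but did not meet the rule, the median ratio was 1.07. The lower of the UMSCC8 and UMSCC25 averages had a median of 199 CPM in the members and 233 CPM in those 1808 shRNAs.

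Together the members took 0.365% to 0.503% of the counts of each UMSCC1 DMSO library, against 2.05% to 2.19% in UMSCC8 and 2.04% to 2.28% in UMSCC25. They were seldom absent. In UMSCC1, 45 members had at least 1 count in all 9 libraries and 12 were at 0 in at least 1 library, with 0 to 4 members at 0 per library. None of the 57 was at 0 in any UMSCC8 or UMSCC25 library. The rule asked for at least 100 CPM in these lines and low values in UMSCC1, so nothing is read from this difference.

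The same rule was turned on the other lines for comparison. On the DMSO plates, 12 of 1762 shRNAs (0.681%) were under-represented in UMSCC25 alone and 3 of 1724 (0.174%) in UMSCC8 alone, against 57 of 1865 (3.06%) in UMSCC1. These shares were not tested, since the 3 plates of a line share its transduction.

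Near the threshold the choice was narrow. The members closest to the limit were TRCN0000000987 with a ratio of 0.329 and TRCN0000000734 with 0.326, and the closest shRNAs outside it were TRCN0000001606 with 0.335 and TRCN0000039674 with 0.338. TRCN0000001606 had 221, 170.1 and 209.7 CPM on the UMSCC1 DMSO plates, against 831, 782 and 594 CPM in UMSCC8 and 586, 713 and 493 CPM in UMSCC25. TRCN0000000987, just inside, had 189, 228 and 77.4 CPM in UMSCC1, against 513, 545 and 446 CPM in UMSCC8 and 1196, 1139 and 951 CPM in UMSCC25. In both of these shRNAs every UMSCC1 DMSO plate lay below every DMSO plate of the other lines. TRCN0000000734 and TRCN0000039674 did not separate in this way. TRCN0000000734 had 134.5 CPM on its highest UMSCC1 DMSO plate, against 110.0 CPM on its lowest UMSCC8 plate. TRCN0000039674 had 62.9 to 79.4 CPM on the UMSCC1 DMSO plates, against 32.8 CPM on its lowest UMSCC8 plate. The member nearest the minimum abundance was TRCN0000011879, with a UMSCC25 average of 100.6 CPM. Its UMSCC1 DMSO plates had 2.17, 7.73 and 50.9 CPM, which came from 1, 2 and 25 counts.

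The treated plates were not used to choose the members, although they carried cells of the same transductions. Members again averaged far less in UMSCC1 than in the other lines. With gefitinib, the median of the members' averages was 60.6 CPM in UMSCC1 (9.08 to 1262 CPM), against 234 CPM in UMSCC8 and 211 CPM in UMSCC25. With AZD8931 it was 63.1 CPM in UMSCC1 (0.810 to 451 CPM), against 224 CPM in UMSCC8 and 226 CPM in UMSCC25. The members' share of a library was 0.501% to 0.679% in UMSCC1 with gefitinib, against 1.77% to 1.96% in UMSCC8 and 1.75% to 2.26% in UMSCC25. With AZD8931 the share was 0.371% to 0.575% in UMSCC1, against 1.96% to 2.13% in UMSCC8 and 1.99% to 2.24% in UMSCC25. The libraries of UMSCC1 did not overlap those of the other lines in this share under either inhibitor. The median of all 1865 shRNAs that could have been selected, members included, also did not overlap with AZD8931. It was 207 to 255 CPM in UMSCC1, against 267 to 275 CPM in UMSCC8 and 268 to 274 CPM in UMSCC25. With gefitinib it was 266 to 272 CPM, against 258 to 267 CPM and 256 to 267 CPM, and overlapped.

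The plates of UMSCC1 also spread more, for the members and for other shRNAs. Over the members the median coefficient of variation over 3 plates was 59.9% with gefitinib, 67.0% with AZD8931 and 52.6% with DMSO in UMSCC1. It was 36.7%, 26.7% and 26.8% in UMSCC8 under the same 3 agents, and 41.4%, 26.3% and 23.7% in UMSCC25. In the 1808 shRNAs outside the rule it was 30.3%, 45.4% and 36.0% in UMSCC1, 28.0%, 22.1% and 28.2% in UMSCC8 and 31.2%, 25.1% and 19.4% in UMSCC25, so that with gefitinib their UMSCC1 value lay below that of UMSCC25. The counts behind the members' values were small in UMSCC1, where the median member had 9 to 40 counts in a library, against 44 to 145 counts in UMSCC8 and 77 to 111 counts in UMSCC25.

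Each member was then put to the rule a second time on the treated averages. With gefitinib, 24 of 57 (42.1%) met both parts of it, and with AZD8931, 28 of 57 (49.1%) did. All shRNAs that reached 100 CPM in UMSCC8 and UMSCC25 under the same inhibitor, members included, were put to it too. Of these, 63 of 1722 (3.66%) met it with gefitinib and 175 of 1824 (9.59%) with AZD8931. Without UMSCC1 AZD8931 replicate 1, the library that stood apart, 140 of 1824 (7.68%) met it with AZD8931, and 27 of these were members. Both inhibitors together kept 14 members, and 19 met the rule under neither. Among the 1808 shRNAs outside the rule on DMSO, 28 met it with gefitinib, 107 with AZD8931, 13 with both inhibitors and 1686 with neither. Part of the difference lay in the minimum abundance, since the lower of the other lines stayed at or above 100 CPM for 42 members with gefitinib and 48 with AZD8931. Of the 3 shRNAs chosen by the mirrored rule in UMSCC8, 1 met it again with gefitinib and 0 with AZD8931. Of the 12 in UMSCC25, 3 did with gefitinib and 0 with AZD8931. The minimum of 100 CPM was reached again by 3 and 2 of the 3, and by 7 and 7 of the 12, in the same order. Of all shRNAs at that minimum, 0.853% and 0.442% met the UMSCC8 rule, and 2.03% and 1.36% the UMSCC25 rule. These small counts were not tested against those of UMSCC1.

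The ratio of UMSCC1 to the lower of the other lines had a median of 0.351 over the members with gefitinib (0.0374 to 2.62) and 0.268 with AZD8931 (0.0106 to 2.70). It was at most 0.333 for 28 members with gefitinib and 33 with AZD8931. With gefitinib it passed 0.5 for 18 members and 1 for 4 members, and with AZD8931 for 11 and 2 members. Among the 1808 shRNAs outside the rule the medians were 1.30 with gefitinib and 1.18 with AZD8931, and 30 (1.66%) and 112 (6.19%) were at or under 0.333. Taken plate by plate, 32 of 57 members (56.1%) were at or under 0.333 times the lower of the other lines' averages on at least 4 of the 6 treated UMSCC1 plates. This held for 29 of the 1808 other shRNAs (1.60%). The ratio was that low for 5 members on all 6 plates and for 2 on none. Among the 1808 other shRNAs it was that low for 2 (0.111%) on all 6 plates and for 1265 (70.0%) on none.

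The lines were compared on the treated libraries alone with edgeR's quasi-likelihood test, with Benjamini-Hochberg adjustment over 3125 shRNAs and a threshold of 0.05. All 57 members passed the filter of at least 10 counts over the 18 treated libraries. With gefitinib, 31 members (54.4%) were lower in UMSCC1 than in UMSCC8, where 6.27% of all shRNAs tested were, and 33 (57.9%) were lower in UMSCC1 than in UMSCC25, where 6.91% of all were. In both contrasts at once 25 members (43.9%) were lower, against 3.14% of all shRNAs tested and 2.60% of the 1808 shRNAs outside the rule. This count fell to 14 without UMSCC1 gefitinib replicate 1, to 14 without replicate 2 and to 14 without replicate 3, with 13 of the 25 retained each time. The share of all shRNAs tested fell as well, to 1.44%, 1.86% and 1.79% in the same order.

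With AZD8931, 36 members (63.2%) were lower in UMSCC1 than in UMSCC8, where 12.5% of all shRNAs tested were, and 35 (61.4%) were lower in UMSCC1 than in UMSCC25, where 12.2% of all were. Both contrasts called 31 members (54.4%), against 7.87% of all shRNAs tested and 6.14% of those outside the rule. Without UMSCC1 AZD8931 replicate 1, the library that stood apart, both contrasts called 25 members and 4.58% of all shRNAs tested. By the quasi-likelihood test of edgeR, no member was higher in UMSCC1 in any of the 4 contrasts. Of all shRNAs tested, 3.1% were higher than in UMSCC8 and 3.71% than in UMSCC25 with gefitinib, and 10.3% and 10.7% with AZD8931. The members' count was also 0 in each contrast at an unadjusted p under 0.05, where 10.2% to 17.0% of all shRNAs were higher, and with DESeq2, where 4.32% and 6.08% were with gefitinib and 12.9% and 13.6% with AZD8931.

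The median log2 fold change over the members was -1.81 for UMSCC1 over UMSCC8 and -1.81 for UMSCC1 over UMSCC25 with gefitinib, and -1.90 and -1.94 for the same contrasts with AZD8931. Over all shRNAs tested the 4 medians lay between -0.06 and -0.02. Log2 fold changes were below 0 for 53 and 56 members in the gefitinib contrasts and for 54 and 54 in the AZD8931 contrasts. Of all shRNAs tested, 50.8% and 51.2% were below 0 with gefitinib, and 51.6% and 50.6% with AZD8931. When libraries were scaled by their totals alone, the median of all shRNAs in the AZD8931 contrasts moved by -0.22 against UMSCC8 and by -0.15 against UMSCC25. The members' median relative to that of all shRNAs was then -1.87 and -1.92, close to the -1.84 and -1.92 of the TMM scaling.

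Plates were also compared without a model. Every gefitinib plate of UMSCC1 lay below every gefitinib plate of UMSCC8 and UMSCC25 for 28 members, which was the case for 7.58% of all shRNAs tested. With AZD8931, 38 members separated in this way, against 17.0% of all shRNAs tested. On the DMSO plates, which chose the members, 54 of 57 did, against 8.58% of all shRNAs tested, and nothing is read from that difference.

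All 4 contrasts called 17 members (29.8%), against 1.28% of all shRNAs tested. A further 11 members were lower in 3 contrasts, 15 in 2, 4 in 1 and 10 (17.5%) in none, against 78.6% of all shRNAs tested in none. Calls in both contrasts of an inhibitor were made with gefitinib alone for 8 members, with AZD8931 alone for 14 and with neither for 18, against 1.86%, 6.59% and 90.3% of all shRNAs tested. A call under 1 inhibitor and not under the other does not show that the line difference changed, which was tested separately. The number of calls is set beside DMSO abundance as a description, since the rule used the DMSO plates. Calls in other shRNAs were not split by abundance or ratio, so these splits are not read as a trait of the members. Of the 28 members with at least 200 CPM in the lower of the other lines, 13 were called in all 4 contrasts and 1 in none. Of the 29 members under 200 CPM, 4 were called in all 4 and 9 in none. Of the 21 members with a DMSO ratio at or under 0.2, 8 were called in all 4 contrasts, and of the 36 above it 9 were.

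The 5 members with the most abundant lower line show how far the treated plates repeated the DMSO pattern. TRCN0000002028 had 77.6, 84.4 and 209 CPM with gefitinib, 99.6, 45.0 and 178 CPM with AZD8931 and 117, 112 and 95.7 CPM with DMSO in UMSCC1. In UMSCC8 it had 673, 626 and 818 CPM with gefitinib, 851, 956 and 662 CPM with AZD8931 and 667, 872 and 726 CPM with DMSO. In UMSCC25 it had 1892, 2238 and 1128 CPM with gefitinib, 1328, 1600.1 and 1329 CPM with AZD8931 and 1503, 1557 and 1272 CPM with DMSO. Every treated UMSCC1 plate lay below every treated plate of the other lines. The DMSO plates also separated, but they chose TRCN0000002028. With gefitinib its log2 fold change was -2.46 ± 0.41 (SE) for UMSCC1 over UMSCC8 and -3.85 ± 0.43 for UMSCC1 over UMSCC25, and edgeR's quasi-likelihood test gave adjusted p of 0.000580 and 3.02e-06. With AZD8931 it was -2.68 ± 0.42 (adjusted p = 0.000139) and -3.52 ± 0.43 (adjusted p = 8.30e-06) by the same test.

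TRCN0000006330 was also called in all 4 contrasts. It had 178, 633 and 404 CPM with gefitinib and 119, 209.8 and 221 CPM with AZD8931 in UMSCC1. The same agents gave 1373, 1461 and 1334 CPM and 957, 1622 and 1394 CPM in UMSCC8, and 1634, 2014 and 2044 CPM and 1628, 2255 and 2134 CPM in UMSCC25. The groups did not overlap under either inhibitor, and the log2 fold changes ran from -1.75 ± 0.35 (SE) for UMSCC1 over UMSCC8 with gefitinib to -3.30 ± 0.38 for UMSCC1 over UMSCC25 with AZD8931. On the DMSO plates, by which it was chosen, it had 163, 409.7 and 309 CPM in UMSCC1, against 1508, 550.4 and 732 CPM in UMSCC8 and 1389.6, 1495 and 1519 CPM in UMSCC25.

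TRCN0000002039 passed in all 4 contrasts by a small margin. With gefitinib it had 155, 142 and 297 CPM in UMSCC1, against 399, 399 and 768 CPM in UMSCC8 and 713, 422 and 303 CPM in UMSCC25. With AZD8931 it had 143, 161 and 315 CPM in UMSCC1, against 722, 456 and 516 CPM in UMSCC8 and 622, 444 and 568 CPM in UMSCC25. The highest UMSCC1 plate with gefitinib, at 297 CPM, was next to the lowest UMSCC25 plate, at 303 CPM. The log2 fold changes lay between -1.35 and -1.23, and edgeR's quasi-likelihood test gave adjusted p of 0.0298 to 0.0400. Leaving out 1 of the 18 libraries ended the call against UMSCC25 in 10 cases with gefitinib and 4 with AZD8931, and the call against UMSCC8 in 5 cases with each, at log2 fold changes of -1.48 to -0.93.

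TRCN0000106164 was the most abundant member in the other lines and did not repeat its DMSO pattern with gefitinib. In UMSCC1 it had 1734, 751 and 1299.6 CPM with gefitinib, 109, 416 and 829 CPM with AZD8931 and 545, 197 and 727 CPM with DMSO. With gefitinib the other lines had 1089, 1687 and 841 CPM (UMSCC8) and 4058, 1418 and 2054 CPM (UMSCC25), and the plates overlapped. The log2 fold change of UMSCC1 over UMSCC8 was 0.09 ± 0.43 (SE), with an adjusted p of 0.924 from edgeR's quasi-likelihood test, and that over UMSCC25 was -1.04 ± 0.43 (adjusted p = 0.122). With AZD8931 the other lines had 2389, 1943 and 2269 CPM (UMSCC8) and 2901, 3665 and 3315 CPM (UMSCC25), with no overlap. The log2 fold changes were then -2.11 ± 0.45 (adjusted p = 0.00172) over UMSCC8 and -2.75 ± 0.46 (adjusted p = 0.000213) over UMSCC25. Compared directly in UMSCC1, AZD8931 over gefitinib was -1.38 ± 0.44 and did not pass (adjusted p = 0.0640 from edgeR's quasi-likelihood test). By the same test, its line difference did not change between the inhibitors at the threshold against either line.

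TRCN0000090899 was lower in UMSCC1 in 3 contrasts. With gefitinib it had 265, 177 and 243 CPM in UMSCC1, against 1570.0, 1191 and 1760.0 CPM in UMSCC8 and 404, 1059 and 608 CPM in UMSCC25, without overlap. Its call against UMSCC25 with gefitinib was lost without UMSCC1 gefitinib replicate 2 or UMSCC25 gefitinib replicate 2, at log2 fold changes between -1.50 and -1.21. With AZD8931 it had 253, 614 and 162 CPM in UMSCC1, against 1136, 725 and 1213 CPM in UMSCC8 and 668, 452 and 408 CPM in UMSCC25. The second UMSCC1 plate with AZD8931 lay above a pair of the UMSCC25 plates, and the log2 fold change of UMSCC1 over UMSCC25 was -0.43 ± 0.41 (SE, adjusted p = 0.463 from edgeR's quasi-likelihood test). Its call against UMSCC8 with AZD8931 was lost in 4 of 18 cases, without replicate 1 or 3 of either line under AZD8931, at log2 fold changes of -1.30 to -1.01.

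The 3 members with the lowest ratio of UMSCC1 to the other lines over the 6 treated plates were called in all 4 contrasts. They were picked on the libraries that were tested, so these calls follow from the choice and are given as a description. TRCN0000037413 had 26.5, 13.2 and 0 CPM with gefitinib and 2.43, 3.75 and 9.44 CPM with AZD8931 in UMSCC1. In UMSCC8 it had 232, 170.5 and 163 CPM with gefitinib and 124, 155 and 103 CPM with AZD8931, and in UMSCC25 it had 78.4, 168 and 295 CPM with gefitinib and 144, 80.4 and 61.5 CPM with AZD8931. Its ratio over the treated plates was 0.0668, and its log2 fold changes ran from -4.25 ± 0.85 (SE) to -3.80 ± 0.78.

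TRCN0000007022 had 32.2, 7.91 and 17.9 CPM with gefitinib and 0, 3.75 and 35.9 CPM with AZD8931 in UMSCC1, and its treated ratio was 0.0740. The lowest treated plate of the other lines had 129 CPM, so that the groups did not overlap. TRCN0000002368 had 7.57, 29.0 and 12.5 CPM with gefitinib and 0, 26.2 and 0 CPM with AZD8931 in UMSCC1, with a treated ratio of 0.0828. With gefitinib its UMSCC25 plates had 172, 98.1 and 20.6 CPM, and the lowest of these lay under the highest UMSCC1 plate. Its call against UMSCC25 with gefitinib (log2 fold change -2.61 ± 0.81, adjusted p = 0.0354 from edgeR's quasi-likelihood test) was lost when 1 library was left out in 6 of 18 cases, at log2 fold changes of -2.60 to -1.92, and with the replicate number as a block.

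At the other end, 3 members had the highest treated ratios and were called in no contrast, which likewise follows from how they were picked. TRCN0000007127 had 20.8, 100.2 and 37.5 CPM with gefitinib and 72.9, 48.7 and 88.8 CPM with AZD8931 in UMSCC1. In UMSCC8 it had 12.3, 42.6 and 5.61 CPM with gefitinib and 116, 35.8 and 57.3 CPM with AZD8931, and in UMSCC25 it had 120.1, 62.9 and 47.4 CPM with gefitinib and 14.8, 23.9 and 39.2 CPM with AZD8931. On the DMSO plates that chose it, it had 6.51, 11.6 and 40.7 CPM in UMSCC1, against 157, 60.9 and 118 CPM in UMSCC8 and 67.3, 203 and 55.9 CPM in UMSCC25. Under treatment the lines overlapped and the ratio was 1.37, so that the DMSO pattern was not repeated.

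TRCN0000010247 had a treated ratio of 0.910. With AZD8931 it had 72.9, 56.2 and 121 CPM in UMSCC1, against 152, 81.6 and 176 CPM in UMSCC8 and 61.0, 65.2 and 64.3 CPM in UMSCC25. TRCN0000000758 had a treated ratio of 0.876, and 1 plate carried most of its UMSCC1 abundance with gefitinib, with 11.4, 7.91 and 157 CPM. Its log2 fold changes lay between -0.99 and 0.02 with SEs of 0.79 to 0.81. The 10 members called in no contrast had a median of 146 CPM in the lower of the other lines on the DMSO plates. It was 358 CPM for the 17 called in all 4. The same split was not made for other shRNAs.

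The 2 members just inside the ratio limit and the member nearest the minimum abundance were called in some contrasts. TRCN0000000987 was lower in UMSCC1 than in UMSCC25 with gefitinib (log2 fold change -2.24 ± 0.45, SE, adjusted p = 0.00312) and with AZD8931 (-1.21 ± 0.43, adjusted p = 0.0417) from edgeR's quasi-likelihood test. Against UMSCC8 its log2 fold changes were -0.93 ± 0.44 with gefitinib and -0.32 ± 0.43 with AZD8931, with adjusted p of 0.186 and 0.619 by the same test. The call at 0.0417 was lost in 10 of 18 cases when 1 library was left out, at log2 fold changes of -1.24 to -0.98, and under RLE size factors. TRCN0000000734 was called against UMSCC25 with gefitinib alone (-2.31 ± 0.63, adjusted p = 0.0193), and not without UMSCC1 gefitinib replicate 2, UMSCC1 gefitinib replicate 3 or UMSCC25 gefitinib replicate 2, at -1.94 to -1.67. TRCN0000011879 was called in 3 contrasts and had -1.50 ± 0.64 (adjusted p = 0.134) against UMSCC25 with gefitinib.

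Inhibitor and vehicle plates of UMSCC1 are set side by side without a test, since the DMSO plates chose the members for low values. With gefitinib, 39 of 57 members (68.4%) averaged more than with DMSO in UMSCC1, as did 53.8% of the 1808 shRNAs outside the rule. With AZD8931 this held for 28 members (49.1%), against 48.1% of the shRNAs outside the rule. In the other lines, where the rule asked for high DMSO values, fewer members averaged more under treatment. With gefitinib these were 17 members (29.8%) in UMSCC8 and 18 (31.6%) in UMSCC25, against 43.9% and 42.5% of the shRNAs outside the rule. With AZD8931 they were 24 (42.1%) and 21 (36.8%), against 45.9% and 41.8%.

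Gefitinib and AZD8931 were compared with each other in UMSCC1 on plates that played no part in the choice, at doses that differ. AZD8931 over gefitinib passed the threshold for 3 members (5.26%), against 3.97% of all shRNAs tested, by edgeR's quasi-likelihood test. The share was near that of all shRNAs. When p was not adjusted, 12 members (21.1%) were lower and 4 (7.02%) higher with AZD8931 at p under 0.05, against 11.6% and 9.63% of all shRNAs tested. No member passed without UMSCC1 AZD8931 replicate 1, UMSCC1 gefitinib replicate 1 or UMSCC1 gefitinib replicate 2, while DESeq2 called 7 (12.3%), against 329 of the 3002 shRNAs to which it gave an adjusted p. The median log2 difference was 0.06 over the members and 0.03 over all shRNAs tested.

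The 3 members are named after their values were seen. TRCN0000006210 had 68.0, 109 and 22.7 CPM with AZD8931 in UMSCC1, against 7.57, 0 and 19.7 CPM with gefitinib. Its log2 fold change of AZD8931 over gefitinib was 2.85 ± 0.67 (SE, adjusted p = 0.0220 from edgeR's quasi-likelihood test). Every AZD8931 plate lay above every gefitinib plate. Without UMSCC1 AZD8931 replicate 1 the adjusted p was 0.116, without UMSCC1 gefitinib replicate 1 it was 0.0831 and without UMSCC1 gefitinib replicate 2 it was 0.0721, at log2 fold changes of 2.72, 2.68 and 2.37. TRCN0000104476 had 48.6, 154 and 121 CPM with AZD8931, against 301, 239.9 and 243 CPM with gefitinib, without overlap. Its log2 fold change was -1.17 ± 0.33 (adjusted p = 0.0435), and the call was lost in turn without UMSCC1 AZD8931 replicate 1 (adjusted p = 0.233), UMSCC1 AZD8931 replicate 3 (0.0537) and UMSCC1 gefitinib replicates 1 (0.125), 2 (0.0807) and 3 (0.0673). The log2 fold changes in these 5 cases were -0.83, -1.24, -1.07, -1.22 and -1.21.

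TRCN0000010064, the member with the lowest DMSO ratio (0.0470), had 2.43, 0 and 0 CPM with AZD8931 in UMSCC1, against 11.4, 0 and 69.7 CPM with gefitinib. The AZD8931 plates held 1 count in all, against 45 counts on the gefitinib plates, and the groups overlapped. The ratio of the pooled abundances was 0.0270, with an exact 95% interval of 0.000668 to 0.158 for counting error only. The adjusted p of 0.0426 from edgeR's quasi-likelihood test exceeded 0.05 without any 1 of the 6 libraries, between 0.0548 and 0.328. Against the other lines with AZD8931, the same count stood against 336 counts in UMSCC8 (ratio 0.00346, interval 8.74e-05 to 0.0194) and 105 in UMSCC25 (ratio 0.0107, interval 0.000269 to 0.0610).

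Whether the line difference itself changed with the inhibitor was tested as an interaction. Against UMSCC8, the difference between AZD8931 and gefitinib passed for 0 members and 0.0% of all shRNAs tested by edgeR's quasi-likelihood test. The smallest adjusted p of a member was 0.112. At an unadjusted p under 0.05, 13 members (22.8%) passed, against 14.4% of all shRNAs tested, and DESeq2 called 3 members, against 1.84% of all shRNAs to which it gave an adjusted p. Against UMSCC25 it passed for 1 member, TRCN0000006210, and for 3.07% of all shRNAs tested, while DESeq2 called 2 members, against 6.46% of all shRNAs to which it gave an adjusted p.

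None of the 57 had a clone number next to that of another member. Nothing is read from this count, since so few of the 3177 shRNAs were members. Among 98 shRNAs with a number next to that of a member, 70 reached 100 CPM in both other lines. Their DMSO ratios had a median of 1.02 (0.354 to 3.20), and 4 of 70 (5.71%) were at or under 0.5, against 6.31% of all 1808 shRNAs outside the rule. Clone numbers under 10000 were carried by 61.4% of the members and 64.5% of the shRNAs outside the rule. Neighbouring clone numbers often, but not always, belong to shRNAs of 1 gene, and the genes of the members were not assigned here.

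Target genes were known here for 6 clones, which are directed at TGFBR1 or TGFBR2, receptors for transforming growth factor beta. None was a member, and 2 reached 100 CPM in both other lines. TRCN0000039777 (TGFBR1) had 80.3, 216 and 73.3 CPM on the UMSCC1 DMSO plates, against 189.6, 119 and 203 CPM in UMSCC8 and 217, 103 and 230.2 CPM in UMSCC25, a ratio of 0.723. TRCN0000040011 (TGFBR2) had 108, 92.8 and 50.9 CPM in UMSCC1, against 110.0, 117 and 191 CPM in UMSCC8 and 113, 115 and 157 CPM in UMSCC25, a ratio of 0.654. In both, the highest UMSCC1 plate lay above or close to the lowest plates of the other lines.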

How the data were processed

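The counts were deposited by the authors in 1 table, as whole numbers of reads per shRNA and library without normalization. According to the submitters' processing notes, edgeR, Bowtie 1.0.0 and hg19 were used, and the study's methods cite BiNG!S for the reads. All columns of the table were matched to a sample by line, agent and replicate number, and 31 of 3177 shRNAs had 0 counts throughout. CPM used column totals. Tests used edgeR 4.0.16 in R 4.3.3 (TMM, glmQLFit with robust estimation, glmQLFTest) on the 18 treated libraries as 6 groups, with no replicate term, at least 10 counts summed over these libraries and Benjamini-Hochberg adjustment at 0.05. The standard error was derived from the quasi-likelihood F. DESeq2 1.42.0, other scalings, filters, a replicate block, other rule limits and leaving out each library were alternatives. The fit was also run on counts simulated from a mean profile shared by all lines, with some shRNAs lowered in UMSCC1. The lines here were transduced separately, so that run gives no error rate for these data. Members and lists were chosen with earlier results of these data known. Named were the 5 members most abundant in the lower line, those nearest each limit, the 3 highest and 3 lowest treated ratios, runs of adjacent clone numbers (none were found) and clones the study pairs with TGFBR1 or TGFBR2. No pair of replicate libraries was closer than sampling noise allows (reduced chi-square of at least 6.21).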

Additional observations from a re-analysis of the deposited data

Results flagged for a closer look

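TRCN0000006210 was the 1 member for which the difference between UMSCC1 and UMSCC25 itself differed between AZD8931 and gefitinib. The interaction was 3.38 ± 0.85 (SE) on the log2 scale, with an adjusted p of 0.0260 from edgeR's quasi-likelihood test. Its UMSCC1 plates had 68.0, 109 and 22.7 CPM with AZD8931 and 7.57, 0 and 19.7 CPM with gefitinib, from 28, 29, 12, 4, 0 and 11 counts. Its UMSCC25 plates had 163, 187 and 185 CPM with AZD8931 and 213, 128 and 388 CPM with gefitinib. The adjusted p was 0.0803 without UMSCC1 gefitinib replicate 1, 0.0668 without UMSCC1 gefitinib replicate 2, 0.0585 without UMSCC25 AZD8931 replicate 2, 0.0655 without UMSCC25 AZD8931 replicate 3 and 0.0796 without UMSCC25 gefitinib replicate 3. The interaction in these 5 cases was 3.21, 2.90, 3.39, 3.41 and 2.86. Against UMSCC8 the corresponding difference was 2.79 (adjusted p = 0.139).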

How the results depend on the processing

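The count of members lower in UMSCC1 than in both other lines was 25 with gefitinib and 31 with AZD8931. Of all shRNAs tested, 3.14% and 7.87% were called. Across RLE size factors, total counts, no filter beyond 1 count, filterByExpr, all 27 libraries and DESeq2 the members' counts were 24 to 28 and 31 to 32. The shares of all shRNAs tested were then 2.80% to 5.02% and 7.51% to 10.1%, highest with DESeq2. Leaving out 1 library gave 14 to 28 members with gefitinib and 23 to 32 with AZD8931. The shares of all were 1.44% to 4.64% and 4.58% to 9.50%. The 3 members that differed between AZD8931 and gefitinib in UMSCC1 became 7 with DESeq2 and 0 to 6 without 1 library. Correlations of same-numbered plates were -0.09 to 0.24, above 0.1 in some pairs and below it in most. The highest were between AZD8931 plates of replicate 1, at 0.22 for UMSCC1 with UMSCC8 and 0.24 for UMSCC1 with UMSCC25. Plates of different numbers were not compared, so whether the replicate numbers pair the plates was not tested. The replicate block gave 21 members lower with gefitinib, 29 with AZD8931 and 1 that differed between the inhibitors. With the block, 2.50% and 7.30% of all shRNAs tested were lower than in both lines with gefitinib and AZD8931.

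The number of members depended on the limits. It was 98 at 50 CPM, 28 at 200 CPM, 171 at a ratio of 0.5, 21 at 0.2, and 54 to 92 without 1 DMSO library. It was 42 with TMM-scaled CPM and 78 with medians of the plates. On averages over the 6 treated plates of each line, both inhibitors together, 28 members met the rule again (24 to 30 without 1 library). So did 31 of the 1808 shRNAs outside the rule. On the averages of each inhibitor, 24 members met it with gefitinib (20 to 24) and 28 with AZD8931 (25 to 34). The 3 counts of members became 15, 13 and 16 at 200 CPM, and 10, 8 and 15 at a ratio of 0.2. Of 56 named log2 fold changes, 5 changed sign under at least 1 alternative (12 changes of sign in all), each in a contrast without a call. Without 1 library, TRCN0000106164 over UMSCC8 with gefitinib ranged from -0.19 to 0.45, and TRCN0000000987 over UMSCC8 with AZD8931 from -0.64 to 0.16. TRCN0000000758 ranged from -2.65 to 0.46 over UMSCC8 with gefitinib, from -0.49 to 0.52 over UMSCC8 with AZD8931 and from -0.89 to 0.17 over UMSCC25 with AZD8931, and it had -0.25 over UMSCC8 with AZD8931 by total counts. The cause was not tested. The median member had 9 to 40 counts in a UMSCC1 library, which limits the precision of single members there.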
